A study of Mus musculus with 6 samples.

Results

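Integrins, cadherins and laminins are 3 gene families of cell adhesion, described here in a mouse model of acute lymphoblastic leukemia and in normal pro-B cells. The members are the rows of the gene table whose symbol names an integrin chain (Itga or Itgb with the suffix of a chain), a numbered cadherin or a numbered laminin chain. This gave 61 of 33924 genes: 18 integrin alpha chains, 9 integrin beta chains, 23 cadherins and 11 laminin chains. The 5 Cdhr genes and 5 Itg symbols of proteins that are no chains were left out.

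RNA of 6 libraries was sequenced, 2 from each of 3 groups. Leukemia 1 and leukemia 92 are primary leukemia cells from bone marrow with the genotype Mll-Af4/ N-RasG12D. For this model, c-Kit+ Sca1+ cells were sorted from lineage-depleted marrow of Mll-Af4 mice aged 6 to 8 weeks. They were cultured overnight in lymphoid-promoting medium, given a retrovirus for Cre and TdTomato, sorted for Tomato and then given a retrovirus with N-RasG12D. Of these cells 250000 were injected into mice irradiated with 900 rads, together with 200000 helper cells of wild-type whole marrow. The labels name no sort of the leukemia cells before RNA was taken, so cells of the helper marrow or of the host may be among them. The third group holds pro-B cells of wild-type marrow with the surface phenotype B220+ CD43+ IgM-, for which the labels name no virus and no transplant. They do not say whether the replicates of a group come from separate animals, and the p-values then measure at most the spread between these libraries.

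Integrins are receptors of 1 alpha and 1 beta chain that span the cell surface membrane, bind matrix proteins or receptors of other cells on the outside and are tied to actin through talin and kindlin on the inside. In marrow, the pairs of alpha4 with beta1 and of alphaL with beta2 hold B-cell precursors and other leukocytes to stromal cells and vessel walls. Classical cadherins join like cells through calcium-dependent contacts and are linked to actin by catenins. Laminins are trimers of an alpha, a beta and a gamma chain that form the sheet of the basement membrane, and several integrins bind them.

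Gene counts were 22153444 to 27444759 per library, and 17960 to 19714 genes were detected. Levels are given as CPM, counts scaled to a common library size by TMM, and 3 counts in 1 library correspond to 0.111 to 0.140 CPM. The leukemia 1 libraries differed from each other more than the other pairs: log2 differences within a pair had an SD of 1.33 in leukemia 1, 0.40 in leukemia 92 and 0.35 in pro-B cells. Replicate 2 of leukemia 1 stood apart in its granulocyte and monocyte markers, of which 19 of 20 were in the table: their summed level was 19297 CPM there, 1043 CPM in replicate 1 of leukemia 1, 2633 to 3537 CPM in leukemia 92 and 977 to 1093 CPM in pro-B cells. None of the 19 was at 0 in any library. The pro-B libraries in turn held more T and NK markers (549 to 569 CPM, against 9.87 to 76.2 CPM in leukemia) and more dendritic cell markers (3281 to 3672 CPM, against 411 to 543 CPM). Erythroid markers were also higher in pro-B cells (80.1 to 190 CPM, against 1.64 to 4.28 CPM), and 8 of 11 fell in leukemia. The 14 pro-B markers summed to 4759 to 6965 CPM in leukemia and 6728 to 7573 CPM in pro-B cells.

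The members with the highest levels were integrins of leukocytes, with Cdh17 beside them in both leukemias and Lamb1 in leukemia 1. Levels are compared between genes only as mean CPM per kilobase of exon, since a long gene gives more reads at the same number of transcripts. In pro-B cells the highest levels per kilobase among the members were those of Itgb1 (82.6), Itgb2 (62.9), Itgal (57.0), Itga4 (50.4) and Itgb7 (44.3). In leukemia 92 the order was Cdh17 (244), Itgb2 (177), Itgax (140), Itgal (101) and Itgam (76.7), and in leukemia 1 it was Cdh17 (156), Itgb2 (104), Itgax (98.9), Itgal (70.5) and Lamb1 (59.9). In pro-B cells Cdh17 stood at 0.107 and Lamb1 at 0.358 on this scale. Of the 61 members, 9 had no count in any library (Cdh6, Cdh7, Cdh8, Cdh9, Cdh12, Cdh18, Cdh19, Itgb6 and Lama1). A further 16 had too few counts to be tested, and 36 were tested.

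**Figure D1:**
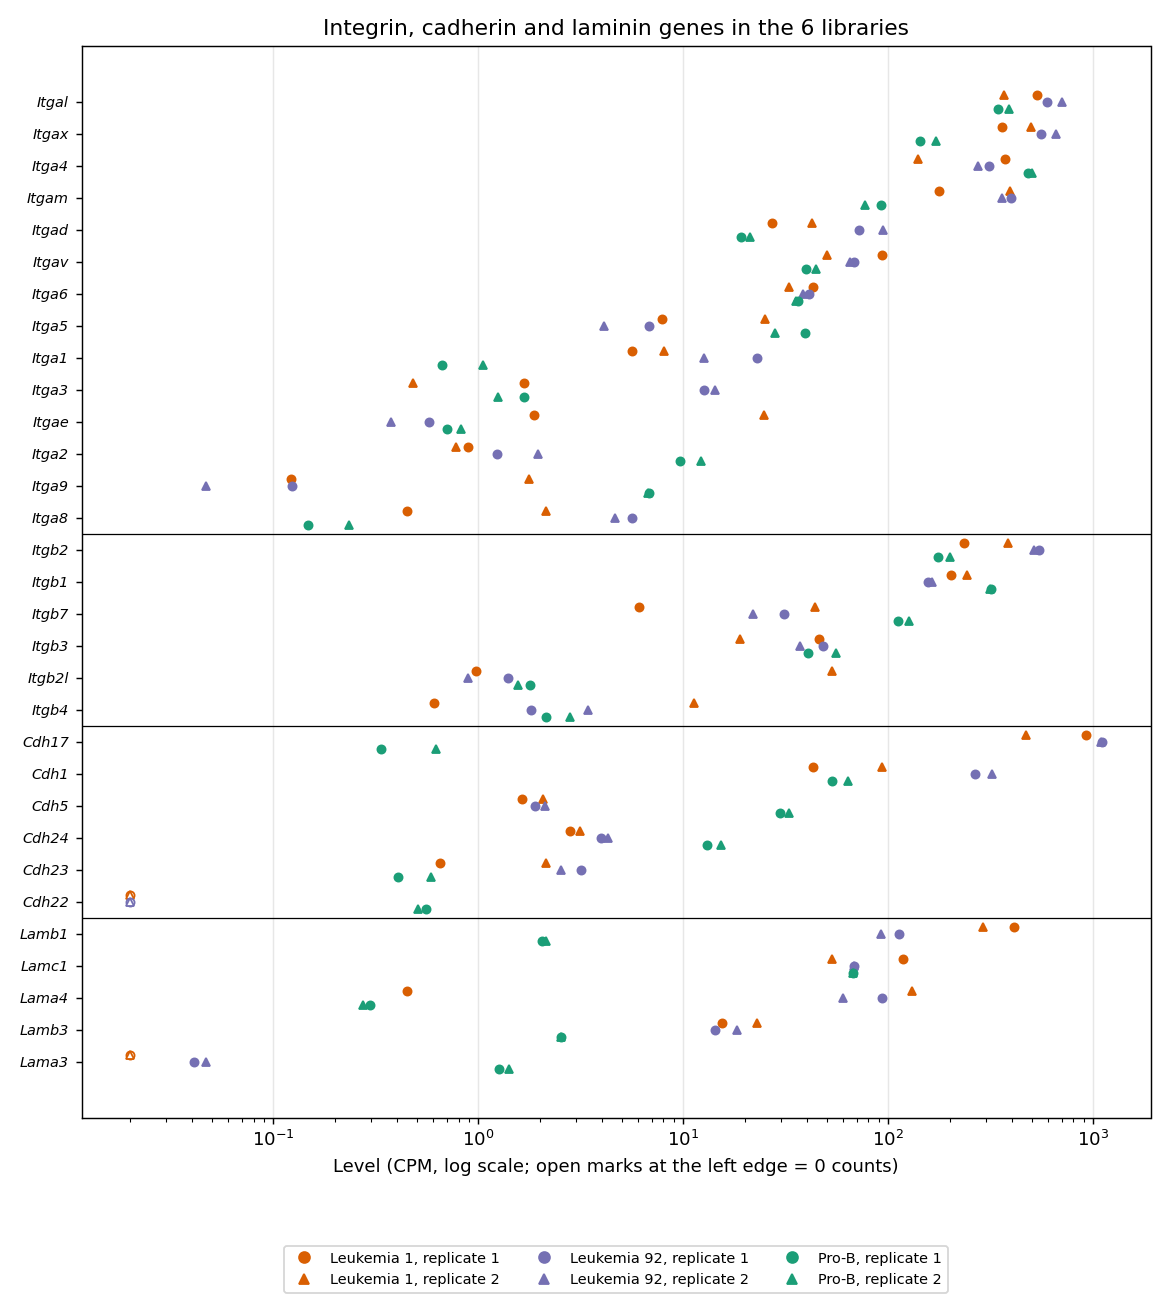
Level of each of the 31 members named with values, in CPM on a log scale, with 1 mark per library (circles replicate 1, triangles replicate 2) and the families separated by lines from integrin alpha chains at the top to laminins at the bottom. Open marks at the left edge are libraries with 0 counts. Cdh17, Lamb1 and Lamb3 lay apart from pro-B cells in all 4 leukemia libraries, while Lama4 in replicate 1 of leukemia 1 lay beside them.

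To compare leukemia and pro-B cells, the counts of each leukemia were summed, and 2 leukemias were tested against 2 pro-B libraries. The test was edgeR's quasi-likelihood test, with Benjamini-Hochberg adjustment over all 15280 genes tested and a threshold of 0.05. Its SEs and p-values leave out the spread between the libraries of 1 leukemia, which was wide for several genes in leukemia 1. Of the 36 members tested, 8 rose, 7 fell and 21 did not pass. The members that rose were Cdh17, Lamb1, Lama4, Lamb3, Itga1, Itgam, Itgax and Itgav. The members that fell were Cdh22, Cdh24, Cdh5, Itga2, Itga4, Itgb7 and Lama3. Over all genes tested, 9.54% rose and 10.7% fell. At an unadjusted p under 0.05, 12 members were higher and 9 were lower, which cannot be set beside those shares, as they are for adjusted p. The median log2 change of the members tested was 0.65, and that of all genes was 0.02. In 12 members all 4 leukemia libraries lay above both pro-B libraries, as in 23.4% of all genes, and in 10 members all 4 lay below, as in 27.3% of all genes. Changes went both ways in the integrin alpha chains (4 rose and 2 fell of 16 tested), the cadherins (1 and 3 of 7) and the laminins (3 and 1 of 6), and of 7 beta chains tested 1 fell. In RNA of a whole cell sample, fewer cells of a type and less RNA per cell cannot be told apart. The calls need both pro-B libraries: with either one left out, edgeR called none of the members (at an unadjusted p under 0.05, 7 or 8 were higher and 6 were lower) and no gene of the table. When the 4 leukemia libraries entered as separate samples, Itga4 (adjusted p 0.16), Itgav (0.11), Lama4 (0.078) and Itgb7 (0.075) no longer passed. Newly passing were Itgad (0.016), Itgb2 (0.025) and Itga8 (0.029) as higher and Itgb1 (0.010), Itga5 (0.049) and Itga9 (0.026) as lower. This made 9 members higher and 8 lower. Over all genes, that setting called 2107 higher and 2605 lower of 14979, against 1458 and 1631 of 15280 in the main fit.

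**Figure D2:**
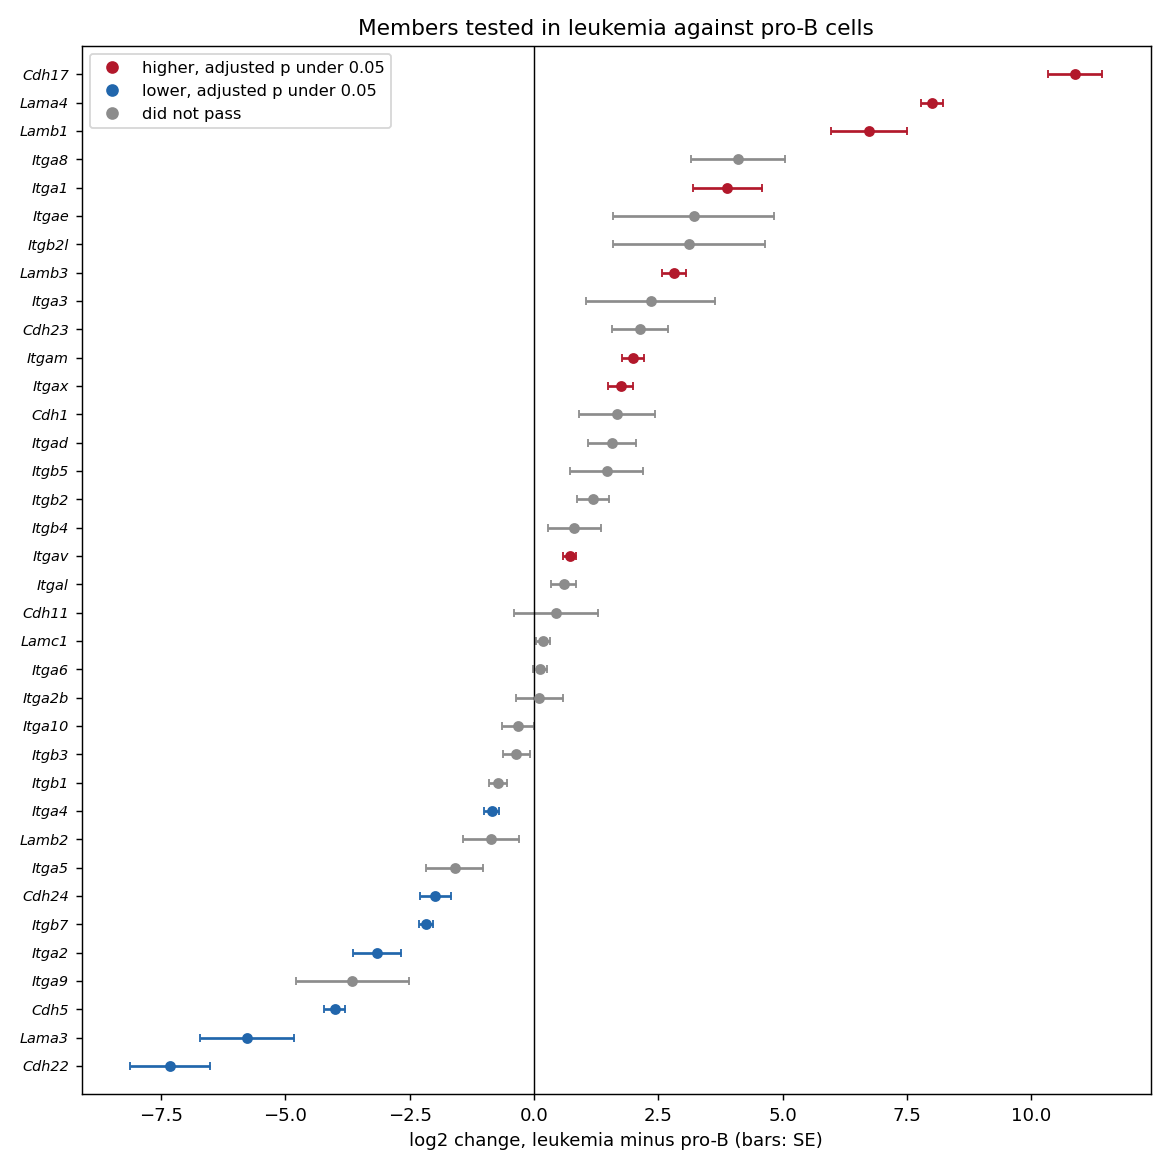
Log2 change of the 36 members tested, leukemia minus pro-B cells, with bars of 1 SE from edgeR, in red for the 8 that rose, in blue for the 7 that fell and in grey for the 21 that did not pass. The bars leave out the spread between the libraries of 1 leukemia. The points for Cdh22 and Lama3 are fitted to 0 to 2 counts in leukemia and depend on the prior count of the fit.

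Itgam and Itgax, alpha chains of the beta2 integrins of leukocytes, rose in leukemia, while the other chains of that group did not pass. Itgam encodes alphaM (CD11b), 1 chain of the complement receptor Mac-1 on myeloid cells and on some B cells. It stood at 177 and 390 CPM in leukemia 1 and at 396 and 360 CPM in leukemia 92, against 92.5 and 77.3 CPM in pro-B cells. All 4 leukemia libraries lay above both pro-B libraries, and replicate 1 of leukemia 1 was the lowest of them. The log2 change was 1.99 (SE 0.23, adjusted p 0.018). Without replicate 2 of leukemia 1, the library with the most granulocyte and monocyte transcripts, it was 1.73 with an adjusted p of 0.077. In leukemia 92 alone it was 2.15 (adjusted p 0.019), in another fit, of all 6 libraries with the library as the unit. Itgax encodes alphaX (CD11c), a complement receptor chain best known from dendritic cells. It stood at 357 and 499 CPM in leukemia 1 and at 554 and 658 CPM in leukemia 92, against 142 and 171 CPM in pro-B cells, and no leukemia library overlapped pro-B cells. Its log2 change was 1.74 (SE 0.25, adjusted p 0.024), and without any 1 leukemia library it stayed between 1.63 and 1.84 with an adjusted p under 0.05. The dendritic cell markers were lower in leukemia, with 7 of 12 fallen and 1 (Zbtb46) risen. Of the 19 granulocyte and monocyte markers 3 rose (Csf1r, Lyz2 and Fcgr1): Csf1r, the receptor of macrophage growth factor, was at 138, 212, 463 and 435 CPM in leukemia and at 3.55 and 5.26 CPM in pro-B cells. In replicate 1 of leukemia 1, where Itgam and Itgax were above pro-B cells, the 19 markers summed to 1043 CPM. The pro-B libraries were at 977 and 1093 CPM. Markers of this list went both ways in that leukemia library. S100a8 and S100a9 stood at 44.9 and 63.5 CPM, below the 92.1 to 97.5 and 133 to 136 CPM of pro-B cells. Csf1r was above pro-B cells there. The part of monocyte transcripts in the rise of Itgam and Itgax was not tested.

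Itgam, Itgax and Itgad, which encodes alphaD, follow each other on chromosome 7 in RefSeq's annotation of GRCm38.p6. Itgad stood at 27.0 and 42.4 CPM in leukemia 1 and at 71.6 and 93.7 CPM in leukemia 92, against 19.0 and 21.2 CPM in pro-B cells. All 4 leukemia libraries were above pro-B cells, but the difference did not pass (log2 change 1.56, SE 0.48, adjusted p 0.098). Itgb2, the beta chain shared by these receptors, stood at 234, 383, 540 and 513 CPM in leukemia and at 174 and 200 CPM in pro-B cells, again without overlap and without passing (log2 change 1.19, SE 0.32, adjusted p 0.077). Itgal, which encodes alphaL of LFA-1, the main beta2 integrin of lymphocytes, was at 532, 368, 591 and 702 CPM in leukemia and at 341 and 387 CPM in pro-B cells. Replicate 2 of leukemia 1 lay between the pro-B libraries (log2 change 0.60, SE 0.25, adjusted p 0.17).

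The start regions of Itgam and Itgax are shown because these neighbouring genes rose together. The 200 bases before the annotated start are from RefSeq (GRCm38.p6), chr7:128062440-128062639 for Itgam and chr7:128129350-128129549 for Itgax, both on the plus strand. They were searched on both strands for AGGAAG (a core read by ETS factors), TGANTCA (AP-1) and TGTGGT (RUNX), chosen after the values were seen. Capitals mark a match.
Itgam: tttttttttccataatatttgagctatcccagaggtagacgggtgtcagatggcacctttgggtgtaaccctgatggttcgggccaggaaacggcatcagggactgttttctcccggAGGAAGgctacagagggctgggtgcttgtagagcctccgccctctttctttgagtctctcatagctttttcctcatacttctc
Itgax: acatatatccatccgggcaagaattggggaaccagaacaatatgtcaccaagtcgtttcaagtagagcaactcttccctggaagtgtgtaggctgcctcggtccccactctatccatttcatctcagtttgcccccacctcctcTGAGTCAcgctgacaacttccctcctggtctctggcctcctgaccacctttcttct
Itgam holds 1 AGGAAG and Itgax 1 TGANTCA. Of 32851 start regions of the same length in the RefSeq table, 24.72% hold AGGAAG, 5.479% hold TGANTCA and 11.16% hold TGTGGT. Of the 15 members called, 11 have a start region in that table. Among the 6 that rose AGGAAG was found in 4 and TGANTCA in 1, and among the 5 that fell AGGAAG was found in 2 and TGTGGT in 1. A member was counted if any of its start regions held the motif, while the shares are per start region. Lamb3 has 2 start regions, and only the first holds AGGAAG. A match describes the letters and is not a measured binding site.

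Itga4 and Itgb7, chains of the integrins that bind VCAM-1, fibronectin and the gut vessel ligand MAdCAM-1, fell in leukemia. Itga4 encodes alpha4, the partner of both beta1 and beta7. It stood at 369 and 140 CPM in leukemia 1 and at 309 and 273 CPM in leukemia 92, against 481 and 505 CPM in pro-B cells. Every leukemia library was below pro-B cells, and the leukemia 1 libraries were the highest and the lowest of the 4. The log2 change was -0.85 (SE 0.16, adjusted p 0.036). It did not pass without replicate 1 (-1.16, adjusted p 0.14) or replicate 2 (-0.58, adjusted p 0.081) of leukemia 1. Itgb7, the beta7 chain, stood at 6.09 and 43.8 CPM in leukemia 1 and at 31.0 and 21.8 CPM in leukemia 92, against 112 and 126 CPM in pro-B cells, without overlap. Its log2 change was -2.17 (SE 0.14, adjusted p 0.0085), with an SE that leaves out the difference between the leukemia 1 libraries. The change was -2.82 with an adjusted p of 0.089 without replicate 2 of leukemia 1. Itgb1, the beta chain of most matrix-binding integrins, was at 201, 242, 156 and 163 CPM in leukemia and at 316 and 313 CPM in pro-B cells. All leukemia libraries were lower, but the change did not pass (log2 change -0.72, SE 0.18, adjusted p 0.064). These pro-B samples also held more T, NK, dendritic and erythroid cell markers, as given above, and the part of these cells in the levels of Itga4 and Itgb7 was not tested.

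The start regions of Itga4 and Itgb7 are shown as those of a receptor pair that fell together. They lie at chr2:79255226-79255425 on the plus strand and chr15:102231936-102232135 on the minus strand (RefSeq, GRCm38.p6), with the same motifs in capitals.
Itga4: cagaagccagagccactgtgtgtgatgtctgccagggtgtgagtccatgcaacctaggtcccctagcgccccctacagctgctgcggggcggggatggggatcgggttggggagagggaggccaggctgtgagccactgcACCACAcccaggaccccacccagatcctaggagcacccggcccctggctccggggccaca
Itgb7: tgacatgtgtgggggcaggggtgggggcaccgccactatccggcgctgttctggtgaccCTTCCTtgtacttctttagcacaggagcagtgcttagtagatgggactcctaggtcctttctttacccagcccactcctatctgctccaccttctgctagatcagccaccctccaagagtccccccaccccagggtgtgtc
Itga4 holds 1 TGTGGT, on the opposite strand, and Itgb7 holds 1 AGGAAG, on the opposite strand, so that neither motif is in both.

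Itga1 and Itga2, the alpha chains of the collagen receptors alpha1beta1 and alpha2beta1, lie next to each other on chromosome 13 and moved in opposite directions. Itga1 stood at 5.65, 8.02, 22.9 and 12.7 CPM in leukemia and at 0.666 and 1.05 CPM in pro-B cells (log2 change 3.88, SE 0.69, adjusted p 0.035). Itga2 stood at 0.894, 0.776, 1.23 and 1.96 CPM in leukemia and at 9.63 and 12.2 CPM in pro-B cells (log2 change -3.16, SE 0.48, adjusted p 0.026). Neither overlapped between leukemia and pro-B cells, and both passed without any 1 leukemia library. Itga2 (CD49b) is also a surface marker of NK cells, and 8 of 17 T and NK markers fell: Ncr1, the NK receptor NKp46, was at 63.8 and 59.6 CPM in pro-B cells and at 0 to 0.406 CPM in leukemia. The part of such cells in the Itga2 difference was not tested.

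Itgav, the alpha chain of receptors for vitronectin, fibronectin and osteopontin, rose by a small amount. It was at 93.2 and 50.2 CPM in leukemia 1 and at 67.8 and 65.3 CPM in leukemia 92, against 39.7 and 44.5 CPM in pro-B cells (log2 change 0.71, SE 0.12, adjusted p 0.033). The groups did not overlap, but the call was lost without replicate 1 (0.50, adjusted p 0.18) or replicate 2 (0.92, adjusted p 0.056) of leukemia 1. Itgb3, a partner of alphav, was at 45.8, 18.9, 47.8 and 37.3 CPM in leukemia and at 40.6 and 55.7 CPM in pro-B cells (log2 change -0.35, adjusted p 0.39). Itga5, the alpha chain of the main fibronectin receptor, was at 7.88, 24.9, 6.82 and 4.11 CPM in leukemia, below 39.0 and 28.1 CPM in pro-B cells, and did not pass (log2 change -1.60, adjusted p 0.13). Itga6, a laminin-binding chain, varied little: it was at 42.8, 32.7, 41.0 and 38.5 CPM in leukemia and at 36.1 and 35.5 CPM in pro-B cells (log2 change 0.12, SE 0.13, adjusted p 0.56).

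Several low integrin chains did not pass, and in some of them 1 leukemia library was far above all other libraries. Itga8, an alpha chain for matrix proteins with an RGD sequence, was at 0.447 and 2.14 CPM in leukemia 1, at 5.63 and 4.62 CPM in leukemia 92 and at 0.148 and 0.234 CPM in pro-B cells (log2 change 4.10, SE 0.95, adjusted p 0.056). Itga9, a chain for tenascin, osteopontin and VCAM-1, was at 6.81 and 6.70 CPM in pro-B cells and at 0.122, 1.77, 0.123 and 0.0467 CPM in leukemia (log2 change -3.66, SE 1.13, adjusted p 0.098). Both stood apart from pro-B cells in all 4 leukemia libraries, and neither passed. Itgae, Itgb2l, Itgb4 and Itgb5 shared another pattern, in which 1 library was high. In replicate 2 of leukemia 1, Itgae (the alphaE chain of mucosal lymphocytes and some dendritic cells) stood at 24.9 CPM, Itgb2l (a beta2-like chain) at 53.0 CPM, Itgb4 (the beta4 chain of a laminin receptor) at 11.3 CPM and Itgb5 (a vitronectin receptor chain) at 7.57 CPM. In the 5 other libraries the ranges were 0.374 to 1.87, 0.888 to 1.78, 0.609 to 3.41 and 0.122 to 1.15 CPM. The same library held the most granulocyte and monocyte transcripts, and the part of such cells was not tested. None of the 4 passed (adjusted p 0.22 to 0.33). Without that library the Itgb2l change was -0.63 and the Itgb4 change -0.60 on the log2 scale. Itga2b and Itga10 were tested at 0.731 to 3.44 CPM and did not pass, and Itga7, Itga11 and Itgb8 had 8 to 11 counts in all libraries together.

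**Figure D3:**
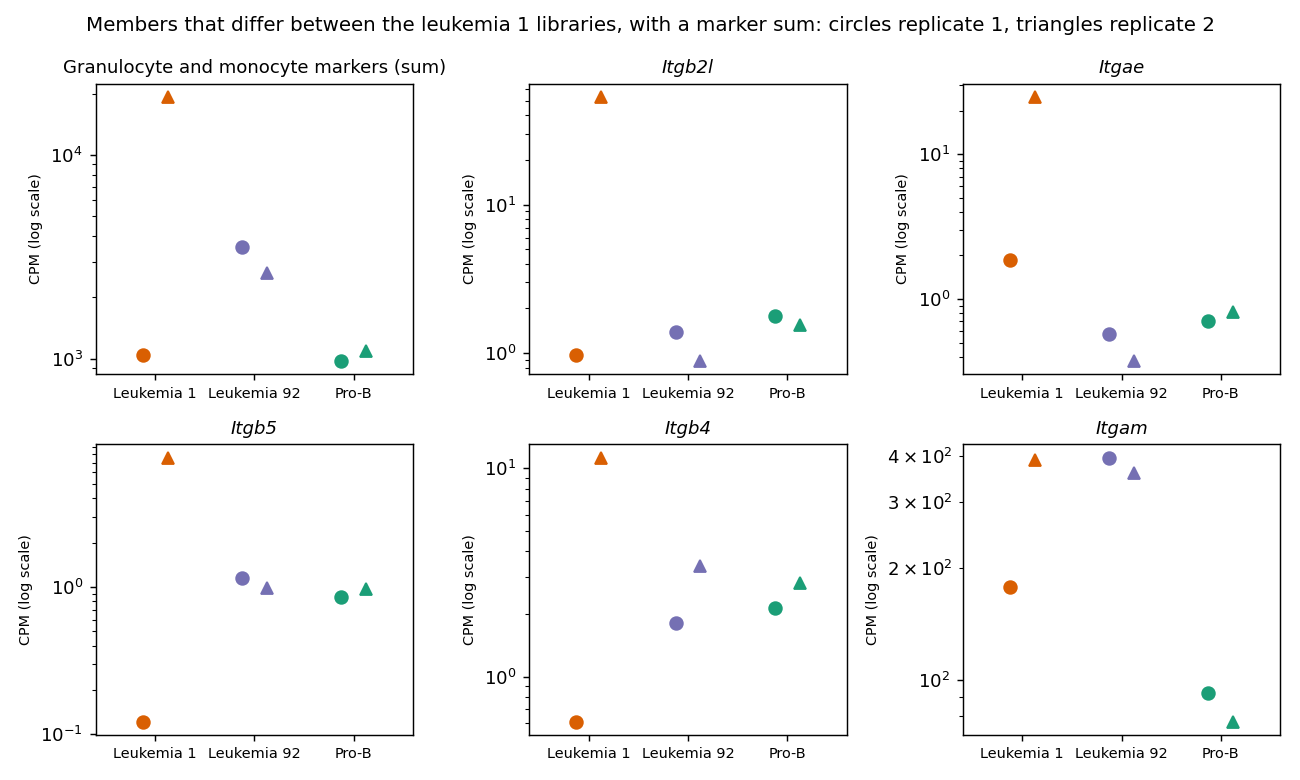
Summed level of the granulocyte and monocyte markers and levels of Itgb2l, Itgae, Itgb5, Itgb4 and Itgam, in CPM on log axes, with 1 mark per library (circles replicate 1, triangles replicate 2). Replicate 2 of leukemia 1 was the highest library for the marker sum (19297 CPM), Itgb2l, Itgae, Itgb5 and Itgb4, while Itgam was also high in both leukemia 92 libraries.

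Cadherins changed at very different levels: Cdh17 went from near the detection limit to one of the highest members, while 3 other cadherins fell. Cdh17 encodes LI-cadherin, known from liver and intestinal epithelium and without the catenin-binding tail of classical cadherins. It had 9 and 16 counts in the pro-B libraries (0.333 and 0.624 CPM) and was at 926 and 471 CPM in leukemia 1 and at 1101 and 1084 CPM in leukemia 92. The log2 change was 10.88 (SE 0.54, adjusted p 0.0074), and 10.47 to 11.37 with any 1 library left out. Cdh5, VE-cadherin of endothelial cells, fell from 29.6 and 32.7 CPM in pro-B cells to 1.63, 2.07, 1.89 and 2.10 CPM in leukemia (log2 change -4.01, SE 0.21, adjusted p 0.0074). Of the 15 stromal and endothelial markers 7 were tested, with a median log2 change of -3.98. Of these 2 fell (Kdr and Lepr), 1 rose (Pecam1, also found on leukocytes) and 4 did not pass. In the pro-B libraries 3 and 2 of the 15 were at 0, Cldn5 among them. Pecam1 was there at 168 and 167 CPM, Kdr at 4.92 and 5.11 CPM and Tek at 0.037 and 0.117 CPM. The part of endothelial cells in the Cdh5 difference was not tested. Cdh24, which encodes a classical cadherin, fell from 13.1 and 15.2 CPM to 2.80, 3.14, 3.95 and 4.30 CPM (log2 change -1.98, SE 0.31, adjusted p 0.027). Cdh22 was listed at 0 in all 4 leukemia libraries and had 28 counts in pro-B cells (0.555 and 0.507 CPM). Against a floor of 3 counts over the leukemia libraries it was at least 17.3-fold lower in leukemia, a bound that covers counting error only (edgeR adjusted p 0.025).

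Cdh1, which encodes E-cadherin, the classical cadherin of epithelia, was higher than in pro-B cells in leukemia 92 and not in both libraries of leukemia 1. It was at 42.7 and 93.6 CPM in leukemia 1, at 265 and 322 CPM in leukemia 92 and at 53.2 and 63.2 CPM in pro-B cells. The leukemia 1 libraries lay on either side of pro-B cells and both leukemia 92 libraries above. Leukemia as a whole did not pass (log2 change 1.67, SE 0.76, adjusted p 0.20). In a fit of all 6 libraries with the library as the unit, each leukemia was set against the same 2 pro-B libraries. The log2 change was 0.23 (adjusted p 0.72) in leukemia 1 and 2.33 (adjusted p 0.016) in leukemia 92. Cdh3, the next gene on chromosome 8, had 9 counts in all libraries together. Cdh23, known from hair-cell tip links, was at 0.650, 2.14, 3.16 and 2.52 CPM in leukemia and at 0.407 and 0.585 CPM in pro-B cells, without overlap and without passing (log2 change 2.13, SE 0.57, adjusted p 0.073). Cdh11 was tested at 0.140 to 0.702 CPM and did not pass. Of the 16 cadherins not tested, Cdh13 had 26 counts in leukemia, 24 of them in replicate 2 of leukemia 92, and 0 in pro-B cells, and Cdh15 had 10 in pro-B cells and 0 in leukemia. Cdh2, Cdh4, Cdh10, Cdh16, Cdh20 and Cdh26 had 1 to 5 counts in all libraries together.

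**Figure D4:**
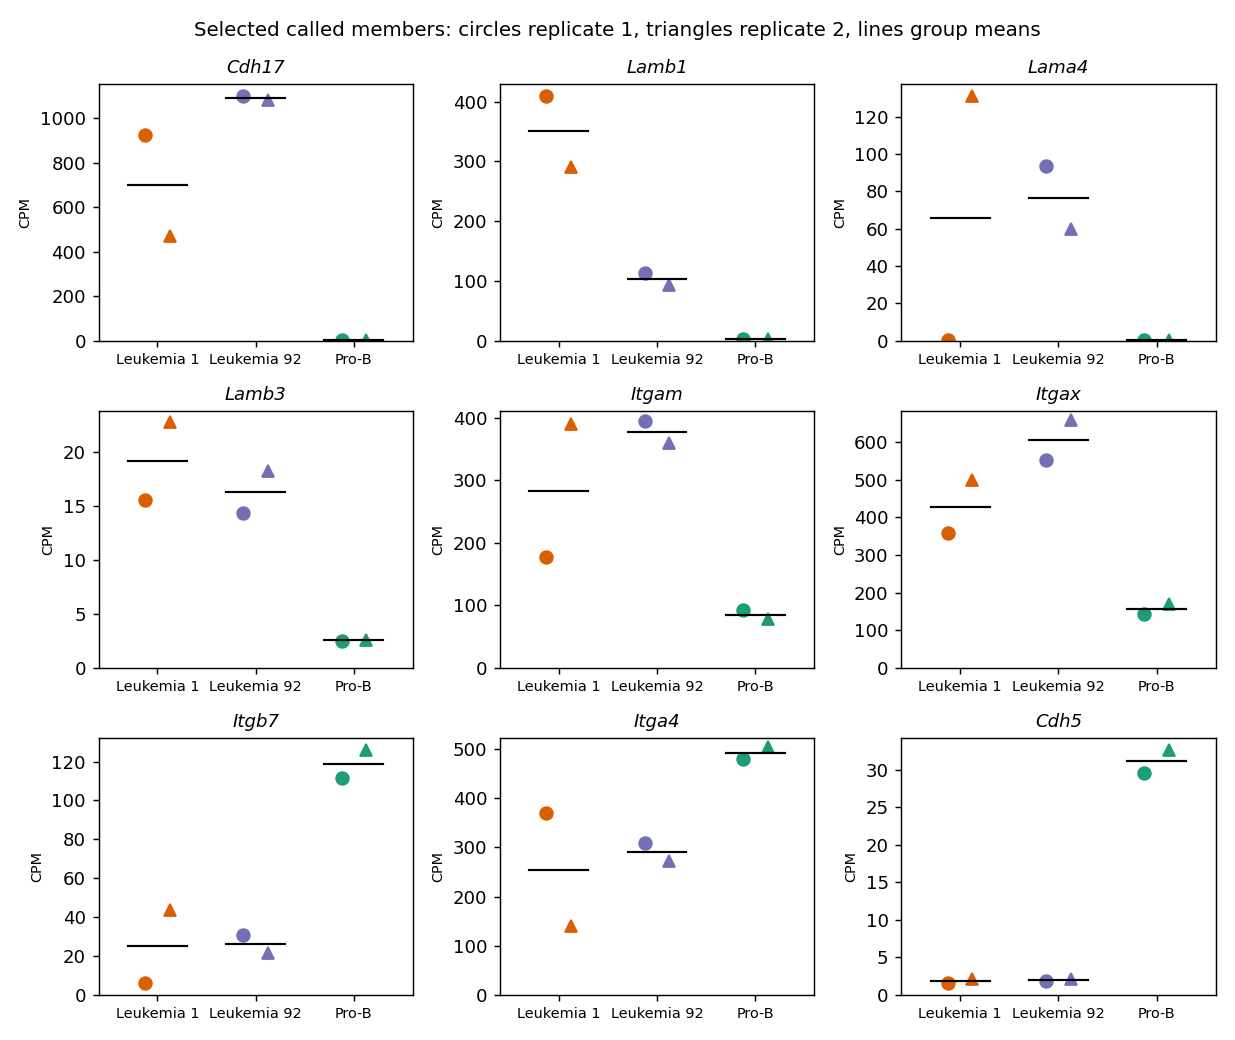
Level in CPM of 9 members that rose or fell, 3 of them laminins, 2 cadherins and 4 integrins, with 1 mark per library (circles replicate 1, triangles replicate 2), a line at the mean of each group and axes that start at 0. Lama4 in leukemia 1 is 1 low and 1 high library, at 0.447 and 131 CPM.

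Of the laminins, 2 beta chains and 1 alpha chain rose. Lamb1, the beta1 chain found in most laminins, stood at 410 and 290 CPM in leukemia 1 and at 113 and 92.4 CPM in leukemia 92, against 2.04 and 2.14 CPM in pro-B cells. All 4 leukemia libraries were far above, and the log2 change was 6.74 (SE 0.77, adjusted p 0.018). Lamb3, a chain of the epithelial laminin-332, was at 15.5, 22.8, 14.3 and 18.3 CPM in leukemia and at 2.52 and 2.53 CPM in pro-B cells (log2 change 2.82, SE 0.24, adjusted p 0.013). Lamc1, the gamma1 chain that pairs with Lamb1 in most trimers, was at 117, 52.9, 67.7 and 68.1 CPM in leukemia and at 67.0 CPM in both pro-B libraries (log2 change 0.18, SE 0.13, adjusted p 0.38). Per kilobase, Lamb1 was thus at 0.358 in pro-B cells beside 8.79 for Lamc1, and at 59.9 and 17.6 in leukemia 1 and leukemia 92 beside 11.2 and 8.91. The 15 markers of stromal and endothelial cells, which make laminins, summed to 334 to 570 CPM in leukemia and 177 to 179 CPM in pro-B cells, of which Pecam1 was 316 to 553 and 167 to 168 CPM. Col1a1 was at 4.65 CPM in replicate 2 of leukemia 1 and at 0 to 0.0934 CPM in the other leukemia libraries. Cldn5 was at 0 to 0.0411 CPM in leukemia. In replicate 1 of leukemia 1, where Lamb1 was highest and Lama4 lowest of the leukemia libraries, 9 of the 15 were at 0. In replicate 2, where Lama4 was highest, 0 of the 15 were at 0, and in leukemia 92 it was 4 and 6. The part of such cells in the levels of the laminins was not tested.

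Lama4, the alpha4 chain of vessel and marrow laminins, was high in 3 of 4 leukemia libraries. It had 11 counts in replicate 1 of leukemia 1 (0.447 CPM), and stood at 131 CPM in replicate 2 and at 93.3 and 59.8 CPM in leukemia 92. Pro-B cells had 8 and 7 counts (0.296 and 0.273 CPM), so that replicate 1 of leukemia 1 lay beside them. The log2 change over summed leukemias was 8.00 (SE 0.22, adjusted p 0.0065), and it was 7.12 with an adjusted p of 0.15 without replicate 2 of leukemia 1. Since the libraries of a leukemia were summed before the test, this SE leaves out the difference between the leukemia 1 libraries. Lama3, the alpha chain of laminin-332, had 70 counts in pro-B cells (1.26 and 1.40 CPM) and 2 in leukemia, both in leukemia 92. The ratio of pro-B cells to leukemia was 64.7 (95% exact interval of the counts 17.3 to 545, edgeR adjusted p 0.030). Lamb3 thus rose while the alpha chain of its known trimer fell. Lamb2 was tested at 0.575 to 2.30 CPM and did not pass (log2 change -0.87, adjusted p 0.32), and Lama2, Lama5 and Lamc3 had 3 to 12 counts in all libraries together.

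Partners of these receptors were taken from 4 lists, chosen with earlier results of these data known, and their counts stand beside the 9.54% of all genes that rose and the 10.7% that fell. The list of integrin activation and signalling holds proteins that tie integrins to actin, switch them on or off, signal from them or bind their chains. Of its 36 genes 29 were tested, 8 rose, 1 fell and 20 did not pass, with a median log2 change of 0.65. Actn1 (alpha-actinin) was at 5.53 and 81.1 CPM in leukemia 1, at 41.1 and 45.7 CPM in leukemia 92 and at 8.26 and 9.78 CPM in pro-B cells, below pro-B cells in 1 leukemia library (log2 change 2.30, SE 0.16, adjusted p 0.010). Rap1b, a small GTPase that switches integrins on, was at 691, 457, 572 and 544 CPM against 287 and 301 CPM (log2 change 0.95, adjusted p 0.018), and Cyth1 (cytohesin 1) and Parvg (parvin gamma) rose by 0.88 and 1.39 on the log2 scale. Tns1 (tensin 1) fell from 74.4 and 88.3 CPM to 0.122, 5.65, 0.452 and 0.701 CPM (log2 change -5.50, SE 0.86, adjusted p 0.028). Tln1 (talin 1) was at 379, 545, 888 and 808 CPM against 528 and 576 CPM (adjusted p 0.61), and Sipa1, which switches Rap1 off, had a log2 change of 1.30 (adjusted p 0.053). Without replicate 2 of leukemia 1, 4 genes of this list passed as higher and 2 as lower. Over all genes that setting called 993 higher and 1725 lower of 14418, against 1458 and 1631 of 15280 in the main fit.

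Of the ligands, 15 of 24 genes were tested, 4 rose, 1 fell and 10 did not pass, with a median log2 change of 1.23. Icam1, a ligand of the beta2 integrins, was at 237, 57.0, 87.7 and 83.1 CPM in leukemia and at 21.4 and 24.7 CPM in pro-B cells (log2 change 2.31, SE 0.28, adjusted p 0.019). Icam2, another beta2 ligand, fell from 42.7 and 42.3 CPM to 2.44, 9.42, 8.18 and 8.50 CPM (log2 change -2.54, adjusted p 0.015). Spp1 (osteopontin) was at 31.4, 235, 118 and 112 CPM against 14.3 and 16.8 CPM (log2 change 3.03, adjusted p 0.0075). Fn1 (fibronectin) was at 10.3, 172, 86.6 and 163 CPM against 12.7 CPM in both pro-B libraries, and Thbs1 (thrombospondin 1) at 1.67, 57.1, 44.7 and 42.0 CPM against 4.44 and 5.57 CPM. Both passed (log2 changes 3.11 and 2.90), yet in replicate 1 of leukemia 1 both were below pro-B cells. Without replicate 2 of leukemia 1 the counts were 1 higher and 3 lower, beside 993 and 1725 over all genes. Vcam1, the ligand of alpha4beta1, was at 52.4 CPM in that library and at 0.370 to 0.569 CPM in the other leukemia libraries, against 4.55 and 7.21 CPM in pro-B cells (adjusted p 0.65), and Thy1 had a log2 change of -3.10 (adjusted p 0.087).

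Of the catenins and other cadherin partners, 14 of 16 genes were tested, 3 rose, 3 fell and 8 did not pass, with a median log2 change of -0.15. Ctnnd1 (p120-catenin) was at 72.1, 67.4, 53.8 and 42.8 CPM in leukemia and at 19.9 and 20.3 CPM in pro-B cells (log2 change 1.56, SE 0.20, adjusted p 0.020), and Ctnna1 (alpha-catenin) rose by 0.60 on the log2 scale. Ctnnd2 (delta-catenin, mostly neuronal) fell from 6.81 and 7.80 CPM to 0.222 to 0.411 CPM (log2 change -4.57, adjusted p 0.015), and Ctnnal1 and Ptpn14 fell as well (log2 changes -2.29 and -5.05). Ctnnb1 (beta-catenin) was at 506, 317, 469 and 434 CPM against 405 and 388 CPM (log2 change 0.13, adjusted p 0.54), and Iqgap1 had a log2 change of 0.78 (adjusted p 0.069). Without replicate 1 of leukemia 1, 1 gene of this list passed as higher, beside 935 of 14631 over all genes. Of the basement membrane genes and laminin receptors, 14 of 20 were tested, 1 rose, 2 fell and 11 did not pass, with a median log2 change of 0.45. Lgals3 (galectin-3) was at 67.7, 190, 125 and 85.3 CPM against 12.2 and 13.8 CPM (log2 change 3.20, SE 0.16, adjusted p 0.0074). Dag1 (dystroglycan, a laminin receptor outside the integrins) fell from 37.4 and 43.8 CPM to 23.8, 13.2, 20.5 and 18.1 CPM (log2 change -1.10, adjusted p 0.025), and Nid1 (nidogen 1, which binds laminin gamma1) fell from 1.81 and 2.26 CPM to between 0 and 0.259 CPM. Without replicate 1 of leukemia 1 no gene of this list passed as lower, and without replicate 2 there were 4. Over all genes 1022 and 1725 passed as lower in these settings. Rpsa and Lamp1, the most abundant genes of the list, did not pass (log2 changes 0.49 and 0.40, adjusted p 0.060 and 0.12). The median over all genes tested was 0.02.

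The leukemias were compared with each other in a fit over all 6 libraries with 1 term per group, in which 14979 genes were tested, 1.82% were higher in leukemia 92 and 1.27% lower. Of the 36 members, 1 differed: Lamb1 was lower in leukemia 92 (113 and 92.4 CPM) than in leukemia 1 (410 and 290 CPM), with a log2 difference of -1.77 (SE 0.22, edgeR adjusted p 0.035). No member was called higher by edgeR. At an unadjusted p under 0.05 it had 6 higher and 5 lower members, which cannot be set beside the shares above, as they are for adjusted p. DESeq2's adjusted calls were 5 higher and 4 lower. Over the 14979 genes tested, edgeR called 273 higher and 190 lower and DESeq2 1323 and 1320. The median log2 difference of the members was 0.09, and that of all genes was -0.08. The call for Lamb1 was lost when a leukemia 92 or a pro-B library was left out, when no gene of the table passed (with an unadjusted p under 0.05, 1 to 3 members were then lower and 4 to 6 higher). Itga3, a laminin-binding chain, was at 1.67 and 0.480 CPM in leukemia 1, at 12.6 and 14.2 CPM in leukemia 92 and at 1.67 and 1.25 CPM in pro-B cells, with a log2 difference between the leukemias of 3.64 (SE 0.65, adjusted p 0.060). For Cdh1 the log2 difference was 2.11 (SE 0.41, adjusted p 0.067), for Itgad 1.25 (SE 0.27, adjusted p 0.081) and for Itgb2 0.77 (SE 0.26, adjusted p 0.16). Their leukemia 92 libraries were all above both leukemia 1 libraries. Lama4 and Itgb7, in which the leukemia 1 libraries were far apart, had differences of 0.22 (SE 1.81) and 0.08 (SE 0.87), and the data set no narrower limit on a difference there. Among the partners, Ptk2 (focal adhesion kinase, adjusted p 0.046) and Nid2 (nidogen 2, log2 difference 1.92, SE 0.27, adjusted p 0.043) were higher in leukemia 92. Ptk2 stood at 3.17 and 3.18 CPM in leukemia 1 and at 8.55 and 9.39 CPM in leukemia 92, against 12.4 and 15.0 CPM in pro-B cells.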

How the data were processed

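The deposited table holds whole-number counts of reads per gene for the 6 libraries, with 33924 genes and 5 rows that name no gene, which held 34.0% to 39.6% of a library's entries and were left out. It has 0 columns of other samples. Per the submitters' processing notes, the tools were STAR 2.4, HTSeq 0.6.1 and DESeq2, and the genome build was mm9. Which annotation and strand setting the counting used is not given in the sources used here. Reads of overlapping genes may therefore be shared.

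From these counts, genes were filtered with filterByExpr (minimum count 10), scaled by TMM and tested with edgeR 4.0.16 in R 4.3.3 (robust quasi-likelihood fit, Benjamini-Hochberg adjusted p under 0.05 over all genes tested). The standard error (SE) was taken from the F statistic. The leukemia was the unit against pro-B cells, and the library was the unit between leukemias. Both fits were tested on simulated data. The simulation gave all libraries the same spread, so it does not cover the wider gap between the leukemia 1 libraries. Exon lengths are from GENCODE (mouse build GRCm38), not the authors' annotation, so levels per kilobase are approximate. DESeq2 1.42.0, other filters and scalings, left-out libraries, single leukemias and a replicate block were alternatives. The single leukemias were contrasts in a fit of all 6 libraries, with the library as the unit.

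Members and lists were chosen with earlier results of these data known. Members named with values (31) are those called, those with a group mean of at least 5 CPM, and those tested without overlap between leukemia and pro-B cells. Of each list, up to 4 called genes in each direction with the smallest p and up to 2 of the most abundant others are named. Members outside this rule, named with low counts or levels (Itgb5 among them), were picked after their values were seen. Values of 1 member and 1 list gene are not reported here.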

Additional observations from a re-analysis of the deposited data

Results flagged for a closer look

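Dixon's ratio of the gap to the range was taken for the 31 members that met the rule for naming with values. In 4 of them 1 leukemia library was far from the other leukemia libraries. Itgb5 was outside that rule and was not checked. The 4 leukemia libraries are 2 groups of 2, and chance alone flags about 1 in 20 groups. Replicate 2 of leukemia 1 was high for Itga9 (1.77 CPM, against 0.0467 to 0.123 CPM in the other 3), for Itgae (24.9 CPM, against 0.374 to 1.87 CPM) and for Itgb2l (53.0 CPM, against 0.888 to 1.40 CPM). Replicate 1 of leukemia 1 was low for Itgam (177 CPM, against 360 to 396 CPM). Replicate 2 also held the most granulocyte and monocyte transcripts, and their part in these values was not tested.

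The leukemias differed from each other in Lamb1, with a log2 difference of -1.77 between leukemia 92 and leukemia 1 that passed the test. For Itgae, both leukemia 1 libraries lay above and both leukemia 92 libraries below pro-B cells. The log2 difference of -4.80 between the leukemias did not pass (edgeR adjusted p 0.12), and the difference of their changes against pro-B cells was not tested separately.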

How the results depend on the processing

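Against pro-B cells, edgeR called 8 members higher and 7 lower. DESeq2 called 14 higher and 10 lower, leukemia 92 alone 13 and 9, leukemia 1 alone 6 and 5, and a 2-fold minimum left 7 and 6. Over all genes the calls were 1458 higher and 1631 lower by edgeR, and 2335 and 2434 by DESeq2. They were 2198 and 2498 in leukemia 92 alone and 1431 and 1607 in leukemia 1 alone. Without replicate 2 of leukemia 1 they were 993 and 1725. RLE size factors and filters on low counts moved no count by more than 1. With 1 library left out, 0 to 10 were higher and 0 to 8 lower: 5 were higher without replicate 2 of leukemia 1, and 0 in either direction without a pro-B library (at an unadjusted p under 0.05, 7 or 8 were higher and 6 were lower). Between leukemias, edgeR called 0 higher (6 at an unadjusted p under 0.05) and 1 lower, and DESeq2 5 and 4. With 1 library left out the counts were 0 to 14 higher and 0 to 12 lower. The high counts arose without a leukemia 1 library, when 7975 or 8133 genes of the table passed and the spread came from the closer pairs of the other groups alone. With 1 leukemia 1 library left out, the difference between leukemias passed with the opposite sign in 5 members: without replicate 1 and without replicate 2 they were 0.42 and -0.48 for Itgav, -0.72 and 2.12 for Itgb7, 0.37 and -0.79 for Lamc1, 1.07 and -0.34 for Itga4 and -2.11 and 2.08 for Itgb4. None of these 5 had passed with all libraries. Cdh5, Itga6, Itgam, Itgb2l, Itgb3, Lama4 and Lamb3 changed sign without passing with the new sign.

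Replicate numbers did not pair the libraries: deviations from the group means correlated at -0.0994, 0.0763 and -0.0258 between groups. With the replicate number as a block, 10 members were called higher and 6 lower against pro-B cells, 6 and 4 of them also called without it. Over all genes the block called 1448 higher and 1925 lower of 14979 against pro-B cells. Between leukemias the block left 0 higher and 0 lower (7 and 5 at an unadjusted p under 0.05). The counts of members at an unadjusted p have no share over all genes beside them, here or above.

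Depth limits the 16 members with counts that could not be tested and the folds of Cdh22 and Lama3. Of the values of named members against pro-B cells over all alternatives, 340 kept their side of the threshold, 39 passed newly and 53 no longer passed. In the partner lists DESeq2 moved 3 counts by over 1.5 times. It called 13 activation and signalling genes and 5 basement membrane genes higher (8 and 1 by edgeR), and 3 ligands lower (1 by edgeR).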
